A study of Mus musculus with 4 samples.

Results

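The genes described here are those of transferrin and iron handling: the serum iron carrier transferrin (Trf), its receptor (Tfrc), the iron transporters Slc11a2 and Slc40a1, the ferrireductase Steap3, the ferritin chains Fth1 and Ftl1, the ferritin receptor Ncoa4 and the iron regulatory proteins Aco1 and Ireb2. They were chosen by name, and all 10 were found among the 28440 genes of the deposited count table and passed the filter on low counts. Bulk poly-A RNA sequencing covered 4 mouse tumours of the mammary gland, all MMTV-R26Met. These mice carry a Met receptor transgene in Rosa26, expressed in mammary cells through Cre under MMTV control, and serve to model triple-negative mammary cancer. All 4 tumours share these alleles, and no normal or transgene-free tissue is among them. The sample titles name no treatment, and the labels give neither the age of the animals nor whether each tumour came from a different mouse. P-values therefore measure only the spread between these 4 samples.

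Iron reaches most cells bound to transferrin, which is taken up by the transferrin receptor into endosomes, reduced there by Steap3 and carried into the cytosol by Slc11a2. Iron that is not used is stored in ferritin, a shell of heavy (Fth1) and light (Ftl1) chains, which Ncoa4 delivers to lysosomes when iron is needed, and it leaves the cell through ferroportin (Slc40a1). When iron is scarce, the iron regulatory proteins Aco1 and Ireb2 bind hairpins called iron-responsive elements: in the 5′ untranslated region of ferritin and ferroportin messages this blocks translation, and in the 3′ untranslated region of the Tfrc message it protects the RNA from decay. In the mammary gland, transferrin is also made by the secretory epithelium and released into milk.

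The hairpins are shown first because the iron regulatory proteins act on messages through them. GENCODE M21 coding transcripts (GRCm38) were searched on the transcript strand for a C, any 5 bases, the loop CAGTGN and 5 bases that pair with those before the loop, G-T pairs allowed. Such a hairpin lay in a 5′ untranslated region of 28 of 20873 genes (0.134%) and in a 3′ untranslated region of 127 of 20987 genes (0.605%). Of the 10 iron-handling genes, 3 had it in the 5′ region (Fth1, Ftl1 and Slc40a1) and 1 in the 3′ region (Tfrc, with 4 hairpins). Each site is printed 5′ to 3′ as DNA on the transcript strand, 27 bases long, with the 6 bases of the loop in capitals. A match describes the sequence and shows no binding. Slc11a2 is known to have an isoform with a 3′ iron-responsive element, which this strict pattern did not find, so the search does not list every gene under such control.
Fth1, chr19:9982733-9982759, plus strand: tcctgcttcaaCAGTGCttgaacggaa
Ftl1, chr7:45459780-45459806, minus strand: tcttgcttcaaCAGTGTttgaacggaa
Slc40a1, chr1:45925466-45925492, minus strand: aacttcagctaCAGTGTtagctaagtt
Tfrc site 1, chr16:32631220-32631246, plus strand: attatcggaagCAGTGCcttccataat
Tfrc site 2, chr16:32631599-32631625, plus strand: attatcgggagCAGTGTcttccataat
Tfrc site 3, chr16:32631664-32631690, plus strand: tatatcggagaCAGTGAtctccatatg
Tfrc site 4, chr16:32631711-32631737, plus strand: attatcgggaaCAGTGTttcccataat

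The Fth1 and Ftl1 sites differed at 2 of 27 bases, C3T and C17T from Fth1 to Ftl1, counted from the 5′ end of the printed site. The loops of Fth1, Ftl1 and Slc40a1 began 99, 90 and 102 bases from the start of their transcripts. In Tfrc the loops began 895, 1274, 1339 and 1386 bases into a 3′ untranslated region of 2458 bases.

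The 4 libraries held between 35220504 and 42809015 counts. The epithelial markers were present in every tumour (summed level of 5 markers 2295 to 3875 CPM), with Krt8 at 1074 ± 201 CPM (SD, n = 4). All 5 were lowest in tumour 1, against 24.8% of all genes tested. Krt19 ran from 11.6 CPM there to 371 CPM in tumour 4 (edgeR adjusted p = 1.96e-08), the only 1 of the 5 past the spread test given below. CPM are counts scaled to the library's total in tested genes, with TMM factors. Ratios of counts between genes are not corrected for length and serve to compare tumours. Since each tumour is 1 library, no test exists between 2 tumours. What could be tested was whether a gene's spread over the 4 tumours exceeded that of genes with like expression (edgeR, deviance at the trended dispersion). Of 15808 genes tested, 574 passed at an adjusted p of 0.05, a background of 3.63%.

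None of the 10 iron-handling genes passed this test (0 of 10; edgeR adjusted p from 0.366 to 1), and DESeq2 marked none of them as a dispersion outlier. This does not show stable levels, because passing took a wide spread. Xdh, a gene on the milk protein list, was 5.82-fold apart and did not pass either (edgeR adjusted p = 0.0815). At an unadjusted p under 0.05 edgeR gave 1 of 10, Tfrc, against a background of 8.74%. In 6 of 10 the highest tumour was over 2-fold above the lowest, against 37.0% of all genes tested, and the median fold was 2.07 against 1.73 over all genes. Aco1 (2.12-fold) and Slc11a2 (2.01-fold) lay just inside that line, Slc40a1 (1.93-fold) and Ncoa4 (1.85-fold) just outside it. The values below therefore describe these 4 tumours, with no difference past the adjusted threshold. In bulk tissue fewer cells of a type and less RNA per cell cannot be told apart.

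**Figure D1:**
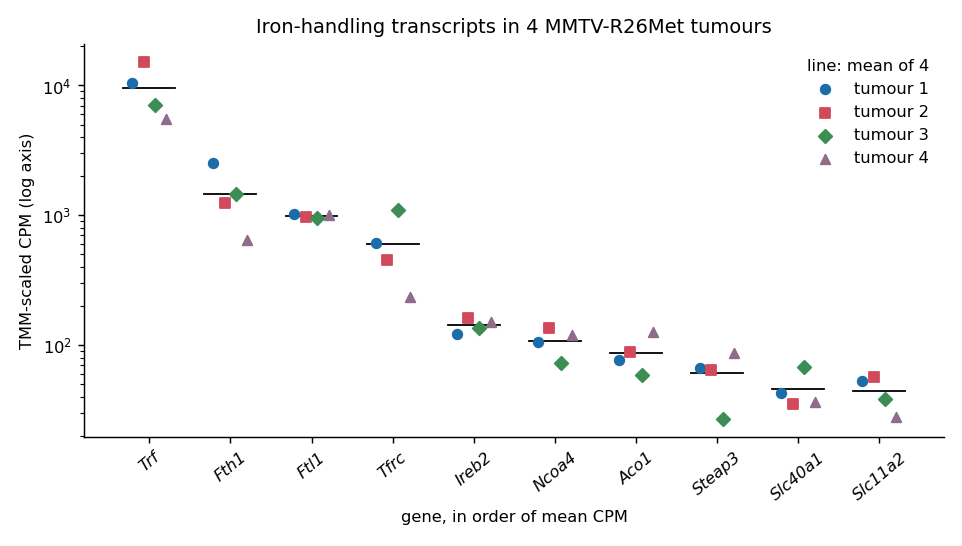
TMM-scaled CPM (log axis) of the 10 iron-handling genes in each of the 4 tumours, with a line at the mean and no correction for length. The points of Trf lie highest, the 4 points of Ftl1 nearly coincide, and Tfrc and Fth1 spread widely with tumour 4 lowest.

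Compared per kilobase of transcript, the order of mean levels was Trf, Fth1, Ftl1, Tfrc, Ncoa4, Ireb2, Aco1, Slc11a2, Slc40a1 and Steap3, from 3728 ± 1670 to 11.9 ± 4.83 CPM per kilobase (SD, n = 4). The genes fell into an abundant set, Trf with the ferritin chains, and a lower set of 6 genes, with Tfrc alone between them. In mean CPM even the lowest of these, Slc11a2, lay above 68.2% of all genes tested. Only the steps from Ftl1 to Tfrc (8.38-fold) and from Tfrc to Ncoa4 (4.60-fold) separated ranges that did not overlap. Trf exceeded Fth1 in 4 of 4 tumours although their ranges overlapped, and Fth1 exceeded Ftl1 in 3 of 4. Ncoa4, Ireb2 and Aco1 (26.6, 24.7 and 22.8 CPM per kilobase) did not differ beyond their spread, nor did Slc11a2, Slc40a1 and Steap3 (14.5, 13.5 and 11.9). Dividing by the union of exons in place of 1 transcript put Ftl1 above Fth1 and made Slc11a2 the lowest, so these places depend on the transcript that is expressed.

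Transferrin was among the most abundant messages of every tumour. Trf (Entrez gene 22041, chr9:103208876-103230286, minus strand) had 10524, 15212, 7072 and 5531 CPM in tumours 1 to 4 (mean 9585 ± 4293, SD, n = 4). Tumour 2 was the highest and tumour 4 the lowest, 2.75-fold apart (edgeR adjusted p = 1). By counts Trf ranked 4, 2, 5 and 13 among all genes of tumours 1 to 4. It alone took 1.04% of the counts of tumour 1 (95% exact binomial interval 1.04 to 1.05%), 1.49% in tumour 2 (1.49 to 1.50%), 0.733% in tumour 3 (0.731 to 0.736%) and 0.542% in tumour 4 (0.540 to 0.545%). These intervals cover counting error only. All 10 genes together held 1.50, 1.81, 1.14 and 0.780% of the counts, and 0.458, 0.316, 0.407 and 0.238% without Trf.

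Liver and myelinating glia are other known sites of transferrin synthesis. The 7 liver markers summed to 2.15, 0.318, 0.993 and 0.293 CPM in tumours 1 to 4. Albumin (Alb) had 0, 3, 1 and 0 counts, and a count of 0 allows up to 0.0708 and 0.0733 CPM in tumours 1 and 4. Of 7 markers of myelinating cells, Mog and Mobp had 0 counts in every tumour, while Sox10, which mammary epithelium can also express, had 302 to 432 CPM. The part of these cells in the Trf level was not tested.

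Transferrin is secreted together with the milk proteins, but Trf took another order of tumours. Of 11 milk protein genes tested, 10 passed the spread test, and the list summed to 645, 7177, 3927 and 44785 CPM in tumours 1 to 4, highest in tumour 4, where Trf was lowest. With 1 tumour left out, calls were lost for Csn3 (edgeR adjusted p = 0.0890 without tumour 1), Csn1s2b (1 without tumour 4) and Lalba (0.541 without tumour 3). Wap did not pass the count filter without tumour 4, so its call has no value there. Among them is lactoferrin (Ltf, chr9:111019292-111042766), an iron-binding relative of transferrin that is found in milk and in neutrophil granules. Ltf had 19.8, 415, 752 and 10738 CPM in tumours 1 to 4 (edgeR adjusted p = 6.81e-17). The count ratio of Trf to Ltf within a library, which no scaling can change, was 533, 36.6, 9.40 and 0.515. Tumour 4 was the only one of the 4 in which Ltf had more counts than Trf. Markers of neutrophils summed to 15.1, 27.3, 89.4 and 51.1 CPM over 5 genes in tumours 1 to 4. Of the 3 tested, 2 were highest in tumour 3, against 29.7% of all genes. One of these was S100a9 (3.61, 2.63, 31.5 and 8.45 CPM), the only 1 of the 3 past the spread test (edgeR adjusted p = 0.0183). S100a8 (4.60, 15.5, 25.1 and 28.4 CPM) was highest in tumour 4 and took the order of Ltf. The part of neutrophils in the Ltf level was not tested.

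**Figure D2:**
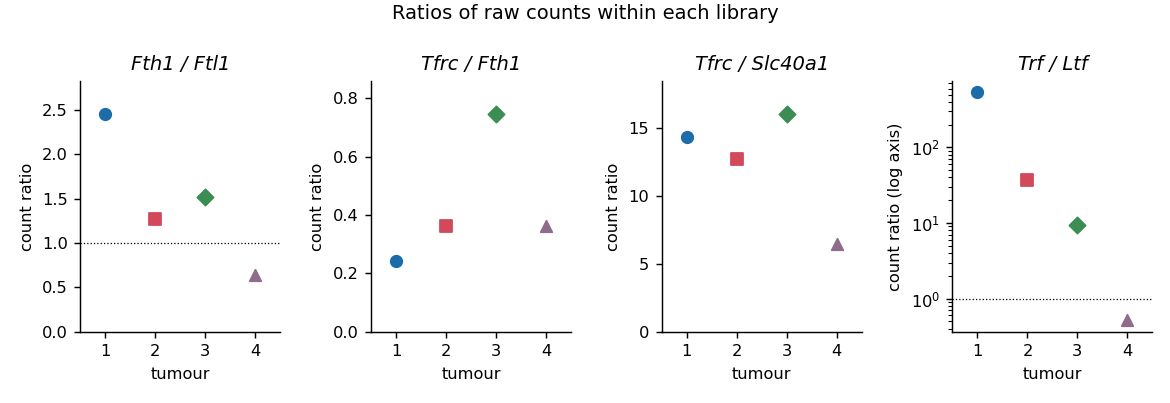
Ratios of raw counts within each library for 4 gene pairs, 1 point per tumour, with dotted lines at 1 where shown (Trf to Ltf on a log axis). Fth1 exceeds Ftl1 in tumours 1, 2 and 3 and is below it in tumour 4, and the Trf to Ltf ratio spans 533 to 0.515.

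By a fixed rule, the genes with profiles most like that of Trf were sought among the 11100 named genes whose mean reached 5 CPM. The measure was the root mean square distance between log2 CPM profiles over the 4 tumours, each centred on the gene's mean. The nearest were Asap3 (0.0895), Col7a1, a collagen of anchoring fibrils (0.102), and Fam83f (0.107). Col7a1, for example, had 57.9, 99.1, 45.0 and 36.1 CPM. The measure rests on 4 tumours and says nothing of shared control.

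Among the 10 genes, the receptor varied most. Tfrc (Entrez gene 22042, chr16:32608896-32632794, plus strand) had 612, 450, 1095 and 233 CPM in tumours 1 to 4, with mean 597 ± 366 (SD, n = 4). Tumour 3 stood highest and tumour 4 lowest, 4.70-fold apart (edgeR adjusted p = 0.366). This was the widest fold of the 10 genes, and without tumour 3 or tumour 4 it was 2.66 or 2.43. The count ratio of Trf to its receptor was 17.2, 33.8, 6.46 and 23.8 in tumours 1 to 4, lowest in tumour 3.

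Tfrc is known to be abundant in dividing cells. A list of 10 cell division genes summed to 1373, 942, 2099 and 945 CPM in tumours 1 to 4, with Mki67 at 513, 365, 713 and 399 CPM and Top2a at 339, 198, 597 and 187 CPM. All 10 were highest in tumour 3, as Tfrc was, against 29.7% of all genes, and 7 were lowest in tumour 4, against 27.8%. The other 3 were lowest in tumour 2. Top2a and Tfrc took the same order of tumours (3, 1, 2 and 4), whereas Mki67 was lower in tumour 2 than in tumour 4. None of the 10 passed the spread test (0 also at an unadjusted p under 0.05 by edgeR, and 0 by DESeq2), and their part in the Tfrc level was not tested. Hypoxia genes, a set to which Tfrc and Trf are often added, summed to 2712, 1999, 2860 and 2967 CPM over 12 genes. Of these 12, 8 were highest in tumour 3, as Tfrc was, against 29.7% of all genes. Only 2 were lowest in tumour 4, as Tfrc was, against 27.8%, and 8 in tumour 2, against 19.7%. Adm (23.0, 15.4, 41.2 and 10.8 CPM) took the order of Tfrc. Ndrg1 was highest in tumour 4 (827 CPM), and Car9, the most variable, was lowest in tumour 3 (2.27 CPM against 15.9 to 19.7). None of the 12 passed the spread test (3 at an unadjusted p under 0.05 by edgeR, against 8.74% of all genes, and 0 by DESeq2). Their part in the Tfrc level was not tested. The profiles nearest to Tfrc were those of Ift122 (distance 0.0722), Ccdc68 (0.0960) and the sorting receptor Sorl1 (0.102), which had 85.7, 58.9, 156 and 37.0 CPM.

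**Figure D3:**
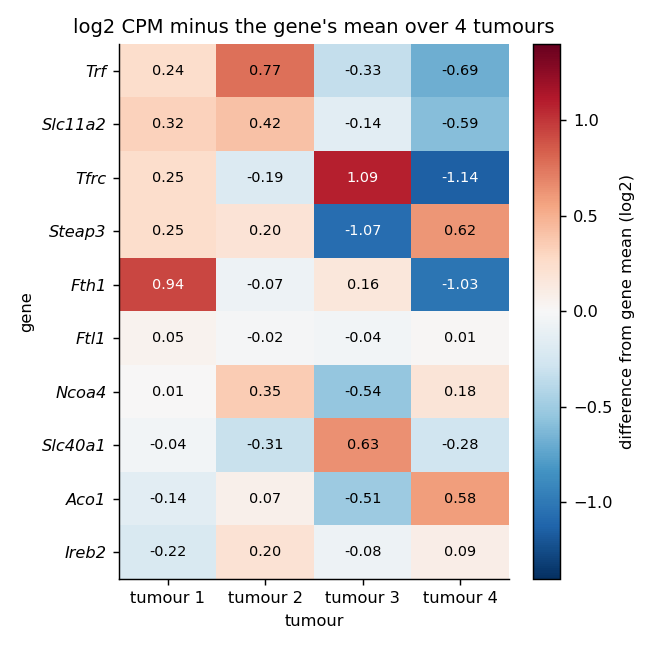
Difference of log2 CPM from the gene's mean over the 4 tumours, for each of the 10 genes (vertical) and tumours (horizontal), red above and blue below the mean. Tumour 3 is highest for Tfrc (1.09) and Slc40a1 (0.63) and lowest for Steap3 (-1.07), Ncoa4 and Aco1, and tumour 4 is lowest for Tfrc, Fth1 (-1.03), Trf and Slc11a2.

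The genes that act after the receptor in the endosome went other ways. Steap3 (Entrez gene 68428, chr1:120226414-120271081, minus strand), which reduces iron so that it can leave the endosome, had 66.8, 64.4, 26.9 and 86.6 CPM in tumours 1 to 4 (mean 61.2 ± 24.9, SD, n = 4). Tumour 3, the highest for Tfrc, was the lowest for Steap3, and these 2 genes had the largest profile distance of the 45 pairs among the 10 genes (1.41). The fold of 3.22 for Steap3 (edgeR adjusted p = 0.986) became 1.34 without tumour 3. Steap3 is a known gene of red cell precursors. Red blood cell markers summed to 44.4, 44.0, 4.71 and 20.8 CPM over 7 genes, also lowest in tumour 3, with Hba-a1 at 15.1, 16.3, 2.01 and 12.1 CPM. Among them, the surface marker Slc4a1 had at most 2 counts in any tumour. Alas2, which did not pass the count filter, had 29, 32, 6 and 54 counts, highest in tumour 4 and lowest in tumour 3, as Steap3 was. Of the 3 markers tested, 3 were lowest in tumour 3 (27.7% of all genes) and 0 were highest in tumour 4 (28.5%). The part of red blood cells in the Steap3 level was not tested.

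Slc11a2 (DMT1; Entrez gene 18174, chr15:100387898-100424209, minus strand), which carries iron out of the endosome, had 52.9, 56.5, 38.3 and 28.1 CPM in tumours 1 to 4 (mean 43.9 ± 13.2, SD, n = 4). Its order of tumours (2, 1, 3 and 4) was that of Trf. After the pair of Ftl1 and Ireb2, both of which hardly varied, Slc11a2 and Trf were the closest profiles among the 10 genes (distance 0.211). The fold of Slc11a2 was 2.01 (edgeR adjusted p = 1).

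The ferritin chains differed in how far they spread. Fth1 (Entrez gene 14319, chr19:9980600-9985111, plus strand), the chain that oxidises iron, had 2517, 1246, 1465 and 644 CPM in tumours 1 to 4 (mean 1468 ± 781, SD, n = 4). Tumour 1 stood above and tumour 4 below the other two, 3.91-fold apart (edgeR adjusted p = 0.908). Without tumour 1 or tumour 4 the fold was 2.28 or 2.02.

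Ftl1 (Entrez gene 14325, chr7:45457944-45459886, minus strand), the chain that supports mineral formation, had 1024, 977, 961 and 1000 CPM (mean 990 ± 27.2, SD, n = 4). Its tumours lay within 1.06-fold of one another. Of 15808 genes tested, 35 had a smaller SD of log2 CPM than Ftl1 (0.04), and Fth1 with an SD of 0.81 stood above 86.5% of them. Within a library the count ratio of Fth1 to Ftl1 was 2.46, 1.28, 1.52 and 0.644 in tumours 1 to 4. The heavy chain had more counts than the light chain in 3 of the 4 tumours and not in tumour 4, and together the chains had 3541, 2223, 2427 and 1644 CPM. Ferritin genes have processed copies in the genome, and the 5 other rows with ferritin names held at most 11 counts in a library. How reads of near-identical copies were assigned is uncertain.

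NRF2, a stress-response factor, is known to induce both ferritin chains. Its 10 other targets on the list summed to 413, 462, 461 and 556 CPM in tumours 1 to 4. Of the 10, 4 were lowest in tumour 1, against 24.8% of all genes, and 7 were highest in tumour 4, against 28.5%. Of these targets 0 of 10 passed the spread test (0 at an unadjusted p under 0.05 by edgeR, and 0 by DESeq2). Nqo1 of this list had 20.2, 12.3, 36.1 and 8.06 CPM. Their part in the ferritin levels was not tested.

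Ncoa4 (Entrez gene 27057, chr14:32159879-32179855, plus strand), the receptor that sends ferritin to the lysosome, had 106, 134, 72.5 and 119 CPM (mean 108 ± 26.4, SD, n = 4), lowest in tumour 3. Per count of Fth1 there were 0.0420, 0.108, 0.0495 and 0.185 counts of Ncoa4 in tumours 1 to 4. This ratio was highest in tumour 4 and spanned 4.40-fold, more than either gene alone. Fth1, its denominator, was lowest in tumour 4 and varied more than Ncoa4 (3.91-fold against 1.85-fold), so the ratio says little of Ncoa4 itself.

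Ferroportin was low beside Trf, the ferritin chains and Tfrc, but its mean CPM lay above 69.2% of all genes tested. Slc40a1 (Entrez gene 53945, chr1:45908070-45926532, minus strand), the only known iron exporter of animal cells, had 42.7, 35.4, 68.3 and 36.2 CPM (mean 45.7 ± 15.4, SD, n = 4). Tumour 3 stood above the other three, and without it the fold went from 1.93 to 1.22. Tfrc counts exceeded those of Slc40a1 by 14.3, 12.7, 16.0 and 6.42 times in tumours 1 to 4. Both genes, which carry the hairpin in opposite untranslated regions, were highest in tumour 3. Macrophages are known for high ferroportin. Their 11 markers summed to 488, 753, 541 and 599 CPM, highest in tumour 2 where Slc40a1 was lowest. Of the 10 tested, 7 were highest in tumour 2 (18.9% of all genes) and 1 in tumour 3 (29.7%), where Slc40a1 was highest. C1qa, the most abundant, had 101 to 173 CPM, while Marco, not tested, had 0 counts in tumours 1 to 3 and 3 counts in tumour 4. The part of macrophages in the Slc40a1 level was not tested. Hamp, the hepcidin gene whose peptide removes ferroportin from the membrane, had 3 counts in tumour 1 and 0 in the others.

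Of the iron regulatory proteins, Ireb2 varied little and Aco1 by over 2-fold. Ireb2 (IRP2; Entrez gene 64602, chr9:54862658-54912534, plus strand) had 122, 163, 135 and 151 CPM (mean 143 ± 18.0, SD, n = 4), and its fold of 1.33 was the smallest after Ftl1. Aco1 (IRP1; Entrez gene 11428, chr4:40143265-40199009, plus strand), which is a cytosolic aconitase when it holds an iron-sulphur cluster, had 76.3, 88.2, 59.3 and 126 CPM (mean 87.5 ± 28.3, SD, n = 4). Tumour 4 was highest and tumour 3 lowest for Aco1. The count ratio of Ireb2 to Aco1 was 1.60, 1.85, 2.27 and 1.20, highest in tumour 3. These genes are controlled largely at the protein level, which RNA does not measure.

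**Figure D4:**
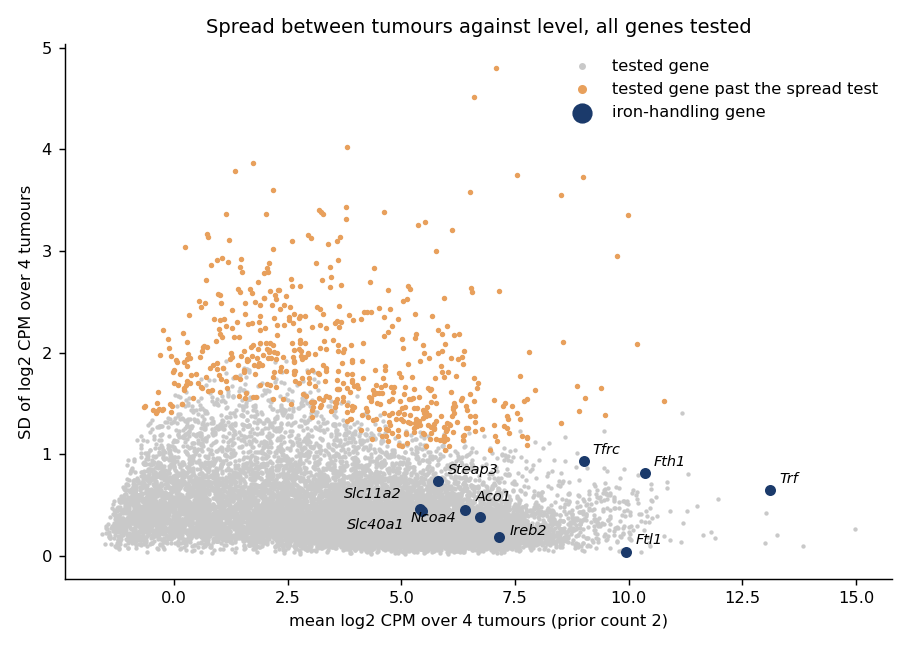
SD of log2 CPM over the 4 tumours against mean log2 CPM for every gene tested (grey), genes past the spread test (orange) and the 10 iron-handling genes (dark blue). Tfrc, Fth1, Steap3 and Trf lie above most genes of like level and below the orange points of that level, and Ftl1 lies at the lower edge.

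By tumour, tumours 3 and 4 were lowest for 4 of the 10 genes each, against 27.7 and 27.8% of all genes tested. In tumour 3 these were Steap3, Ncoa4, Aco1 and Ftl1, and in tumour 4 Trf, Tfrc, Fth1 and Slc11a2. Tumour 1 was lowest for Ireb2 and tumour 2 for Slc40a1, 1 of 10 each, against 24.8 and 19.7% of all genes. Tumour 2 was highest for 4 of 10 (Trf, Slc11a2, Ncoa4 and Ireb2; 18.9% of all genes), tumour 1 for Fth1 and Ftl1 (22.9%), tumour 3 for Tfrc and Slc40a1 (29.7%) and tumour 4 for Steap3 and Aco1 (28.5%). With 10 genes, shares of this size are a description only.

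Around these 10 genes, 112 further genes of iron, iron-sulphur cluster and haem metabolism were listed, of which 109 were in the table and 102 were tested. Of these 9 (8.82%) passed the spread test, against 3.63% of all genes, while 33.3% were over 2-fold apart against 37.0%, and their median fold of 1.69 was close to the 1.73 of all genes. Uptake and ferrireductase genes gave 4 of 13, export and ferroxidase genes 2 of 5, iron chaperones 1 of 8, haem genes 1 of 18 and ferroptosis genes 1 of 13. None passed among 14 hepcidin control genes (1 at an unadjusted p under 0.05 by edgeR, Bmp2, and 0 by DESeq2). The 31 genes of mitochondrial iron and iron-sulphur clusters gave 0 (also 0 at an unadjusted p under 0.05 by edgeR, and 0 by DESeq2), with a median fold of 1.45. Hspa9, their most abundant, had 511 ± 47.1 CPM (SD, n = 4), and Fdx1, their most variable, ran from 9.80 to 27.1 CPM.

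Besides Ltf, 3 surface genes of iron uptake passed. Cybrd1 (chr2:71118054-71142926), a plasma membrane ferrireductase, had 25.1, 30.0, 220 and 7.08 CPM in tumours 1 to 4 (edgeR adjusted p = 2.88e-09). It was highest in tumour 3, as Tfrc was, and the call was lost without tumour 3 (edgeR adjusted p = 0.420). Scara5 (chr14:65666403-65764826), a scavenger receptor that can take up ferritin, had 60.3, 69.9, 61.6 and 8.45 CPM (edgeR adjusted p = 0.0157). Tumour 4 alone was low, and the call was lost without it (1), without tumour 2 (0.0584) and with a common dispersion (0.114). Slc39a8 (chr3:135816882-135888572), a metal importer, had 3.99, 4.51, 6.87 and 39.0 CPM (edgeR adjusted p = 0.00985), high in tumour 4 alone. Its call was lost without tumour 4 (1) and, narrowly, without tumour 2 (0.0501). Lcn2, which binds bacterial iron carriers and was the most abundant gene of this list, had 6509, 4449, 3269 and 2657 CPM and did not pass (edgeR adjusted p = 1).

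On the export and ferroxidase list, Flvcr2 (chr12:85746539-85813586), a transporter first described for haem, had 44.4, 13.3, 35.5 and 1.03 CPM in tumours 1 to 4 (edgeR adjusted p = 2.04e-05, and 0.664 without tumour 4). Its place on that list does not show that it exports iron. Hephl1 (chr9:15051841-15112170), a copper ferroxidase, had 0.896, 5.35, 2.17 and 25.8 CPM (edgeR adjusted p = 0.00164), and was lost without tumour 4 (0.706) or tumour 1 (0.0548). Ceruloplasmin (Cp), the ferroxidase of plasma, was far more abundant, at 853, 1599, 743 and 1762 CPM, and did not pass (edgeR adjusted p = 1).

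Single genes passed in the other lists. Haptoglobin (Hp, chr8:109575128-109579172), which binds free haemoglobin, had 12.0, 157, 16.7 and 42.2 CPM (edgeR adjusted p = 8.35e-06), highest in tumour 2 and lost without it (0.889). Alox12 (chr11:70241457-70255380), a lipoxygenase, had 0.519, 0.579, 19.1 and 0.684 CPM (edgeR adjusted p = 3.21e-06, and 1 without tumour 3). Pcbp3 (chr10:76761854-76962117), a relative of the iron chaperone Pcbp1, had 10.3, 1.68, 0.784 and 0.537 CPM (edgeR adjusted p = 0.00505), and was lost without tumour 1 (1) and with no count filter (0.0829). Holm adjustment also ended the calls of Slc39a8, Scara5, Hephl1 and Pcbp3. Acsl4, a lipid enzyme of ferroptosis, had 397, 726, 504 and 1032 CPM and did not pass (edgeR adjusted p = 1). Mitochondrial ferritin (Ftmt) and the hepcidin paralogue Hamp2 had 0 counts in every tumour, which allows up to 0.0868 CPM in the smallest library.

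**Figure D5:**
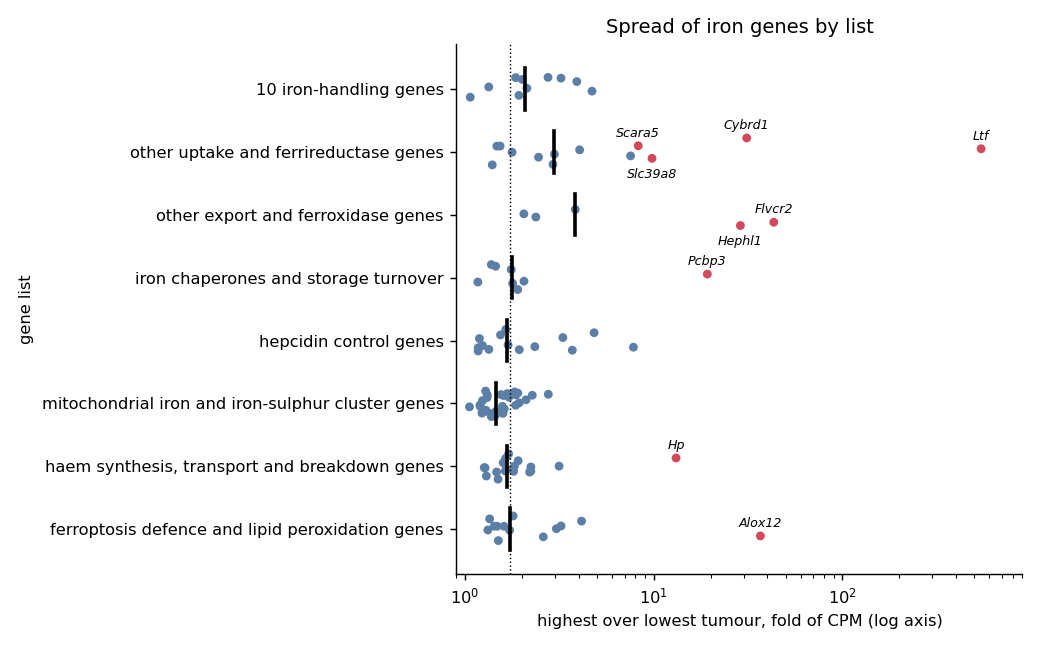
Fold between lowest and highest tumour (log axis) for the 10 iron-handling genes and the tested genes of 7 further lists, red where the gene passed the spread test, with a line at each list's median and a dotted line at the median of all genes tested (1.73). Ltf reaches 543-fold, and the mitochondrial list has the lowest median (1.45).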

How the data were processed

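Poly-A RNA of 4 mammary gland tumours was sequenced as paired reads of 100 bases, per the labels' protocols. A single table of raw, whole-number gene counts was deposited by the authors. FastQC and the builds GRCm38 and mm10 are named in the submitters' processing notes. The aligner, counter, annotation and strand setting were not given in the sources used here. Reads shared by overlapping or antisense genes are therefore of uncertain origin. Entrez gene numbers were matched to RefSeq symbols and coordinates (GRCm38.p6) for 24480 of 28440 rows (86.08%), which held 97.86% of the counts. Columns of values not used numbered 0.

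The analysis used R 4.3.3 and edgeR 4.0.16: filterByExpr with 1 group (minimum count 10, total 15), TMM scaling, and log2 CPM with a prior count of 2. As 1 group has no contrast, each gene got an intercept-only fit at the trended dispersion, whose deviance was set against chi-square with 3 degrees of freedom, Benjamini-Hochberg adjusted over all genes tested. The test was checked on simulated counts. Transcript lengths and hairpin sites came from GENCODE M21, using for lengths the transcript matched to RefSeq, with principal transcripts first.

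The 10 genes and the lists were chosen with earlier results of these data known. Named are the 10 genes, each list's most abundant and most variable gene and those past the test, and the 3 genes nearest to Trf and to Tfrc. Examples outside this rule (Adm, Ndrg1, Alb, Mog, Mobp, Marco, Slc4a1, Alas2, Hamp, Hamp2, Ftmt, Xdh) were chosen after their values were seen. Not every gene named by the rule is described, and some items are not reported here. Alternatives were RLE scaling, library size alone, no filter, a mean of at least 5 CPM, a common dispersion, dispersion outliers of DESeq2 1.42.0, adjustment after Holm, prior counts of 0.5 and 5, each tumour left out, and exon union lengths, the last added after seeing the data.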

Additional observations from a re-analysis of the deposited data

Results flagged for a closer look

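In 5 of 62 named and tested genes 1 tumour lay far from the other three on the log2 CPM scale, by Dixon's gap over range at its 95% critical value. Chance flags about 1 in 20, and 892 of all 15808 genes tested (5.64%) were flagged. None of the 10 iron-handling genes was among them. Scara5 was low in tumour 4 (gap over range 0.930) and Alox12 high in tumour 3 (0.928). Csn1s2b, a casein, was high in tumour 4 alone (0.884; 72.0 CPM against at most 0.839 elsewhere). Car9, a hypoxia gene, was low in tumour 3 (0.899; 2.27 CPM against 15.9 to 19.7), as was the haemoglobin gene Hba-a1 (0.857).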

How the results depend on the processing

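The count of 0 iron-handling genes past the spread test held under every alternative run, and of 100 adjusted p-values of these genes under the alternatives 0 were under 0.05, the lowest being 0.274 for Tfrc without tumour 1. The number of all genes past the test was 574, but 895 with no count filter, 198 with Holm adjustment and 91 by DESeq2, and 367 to 417 with a tumour left out, lowest without tumour 4. The 9 calls in the wider lists became 5 with Holm adjustment, 2 by DESeq2 and 5 to 7 with a tumour left out, 5 without tumour 4. Ltf alone of these 9 passed in all 10 edgeR settings. The number of iron-handling genes over 2-fold apart was 7 with library size alone and 4 to 6 with a tumour left out, against 6, and the mean Trf share of counts was 0.773 to 1.09%, against 0.953%. Why these values moved was not tested, beyond fewer samples or genes entering. No other scaling moved the median gene of a tumour by more than 0.0587 on the log2 scale. No paired analysis was possible because there is 1 group. With 1 library per tumour the depth bounds counting error only.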
